A study of Homo sapiens with 15 samples.

Results

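The contacts of the ABCC4 promoter were examined in HiChIP data from LNCaP cells, an androgen-dependent human prostate cancer cell line. A loop was taken as a member where one of its 1 kb anchors fell within 2.5 kb of the ABCC4 start site in either direction (canonical transcript, Gencode on hg19), and each pair of anchors was counted once. This gave 23 loops of 505995 different loops in all, and of 307643 loops at any protein-coding promoter. HiChIP joins DNA ends that lie close together in fixed nuclei, pulls down the fragments that carry a histone mark, and counts the joined ends as read pairs. Cells were kept for 3 days in charcoal-stripped serum, which removes steroids, and then received the androgen DHT (dihydrotestosterone) at 10 nM and were collected after 30 m, 4 h, 16 h and 72 h, while the 0 m cells received ethanol as vehicle. For each of the 5 time points the labels list 2 samples of H3K27ac HiChIP and 1 sample of H3K4me3 HiChIP, 15 in all, all of 1 cell line.

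Each loop has a single deposited contact frequency for a mark and time point, in 10 tables, and it is not stated whether both H3K27ac replicates entered it. No value therefore has a replicate error and no test between time points was made. The deposited contact frequency is a signal to which the authors had applied TMM scaling (trimmed mean of M values), separately for each mark. Each value was a whole multiple of what 1 read pair is worth, so the read pairs behind it were recovered. The 95% intervals given here are exact intervals from those read pairs and cover counting error only. All loops together held between 2475168 and 4308555 read pairs in the H3K27ac tables and between 2153262 and 10675614 in the H3K4me3 tables. The deepest table, H3K4me3 at 4 h, thus has the narrowest intervals. Loops were present at the promoters of 6 of 6 luminal prostate markers, with a summed contact frequency of 65.5 to 351 in the 0 m H3K27ac table. Of the markers of other cell types, 0 of 3 for basal epithelium, 1 of 3 for leukocytes and 3 of 4 for smooth muscle and endothelium had loops, none above 8.82.

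ABCC4 encodes MRP4, a membrane transporter of the C family of ATP-binding cassette proteins that exports cyclic nucleotides, prostaglandins, conjugated steroids and several drugs from the cell. It is expressed in luminal cells of the prostate, where it is known as a gene that responds to androgen. FOXA1 is a pioneer factor of luminal prostate cells that opens chromatin at enhancers far from promoters. H3K27ac marks active enhancers and promoters, and H3K4me3 marks mainly active promoters, so the 2 marks recover overlapping sets of contacts. A bulk contact frequency cannot tell more cells with a contact from more contact in each cell.

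ABCC4 lies on the minus strand of chromosome 13 (hg19, chr13:95672089-95953705) and has 31 exons, so its promoter is at the right-hand end of the gene and the gene body extends to the left. All 23 loops started from a single anchor, chr13:95952001-95953000, which stands for the 5 kb bin that holds the start site at 95953705. Of the 23 loops, 11 ran into the gene itself, 11 ran upstream, and 1 of 605 kb passed the far end of the gene. The authors had called 10 of them in both marks, 3 in H3K27ac alone and 10 in H3K4me3 alone. The loops into the gene spanned 5 kb to 170 kb. Those of 5 kb, 15 kb and 30 kb ended in intron 1, that of 55 kb ended in a bin holding exons 2 and 3, and those of 70 kb and 85 kb ended in intron 4. The upstream loops spanned 15 kb to 545 kb, and the 8 shortest ended where no gene is annotated. The other 3 ended in the bins of CLDN10 (180 kb), of the promoter of DNAJC3 (375 kb), which encodes a chaperone of the endoplasmic reticulum, and of UGGT2 (545 kb).

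The study designed guides against 3 sites in ABCC4, here called the intron 3 site and, in intron 1, the far and the near site by distance from the promoter, and against the promoter itself. Their matches on hg19 tie these sites to the loops, and are therefore shown, with the guide in lower case and the adjoining PAM (the NGG that Cas9 needs) in capitals, each 5′ to 3′ on the strand given.
Intron 3 site guide 1, chr13:95898660-95898679, minus strand: ggctggcggtggtgccccagAGG
Far intron 1 site guide 1, chr13:95920404-95920423, minus strand: gcgagcacagggttgggggtAGG
Far intron 1 site guide 2, chr13:95920593-95920612, minus strand: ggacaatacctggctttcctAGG
Near intron 1 site guide 1, chr13:95923693-95923712, minus strand: gtaagaatggcacagctgacGGG
Near intron 1 site guide 2, chr13:95924032-95924051, plus strand: gaaactggaaggagacaagcAGG
Promoter guide 1, chr13:95953896-95953915, minus strand: gcgtagctctgggctcccttTGG

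The guides of the intron 3 site lay 55.0 kb from the start site, in the 5 kb bin that ends the 55 kb loop. The guides of the far site, 33.1 kb and 33.3 kb from the start, and those of the near site, 29.7 kb to 30.0 kb from it, fell into the same 5 kb bin, chr13:95920001-95925000, which ends the 30 kb loop, so a single contact frequency covers both sites and cannot tell them apart. Every guide of the intron 3 site, the near site and the promoter had 1 match of all 20 bases in the genome. The guides of the far site did not, since guide 1 had 23 matches, 20 of them beside an NGG, and guide 2 had 455 matches, 437 of them beside an NGG. The far site's sequence is thus of a kind found in many copies, and only its copy in ABCC4 lies within 1 Mb of the start.

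The 30 kb bin was also searched for the letters that FOXA factors favour, TGTTTAC on either strand. The bin held 2 FOXA matches, 99 bp and 578 bp from the middle of the nearest guide of the near site. They are shown on the plus strand with the matched letters in capitals.
FOXA match 1, chr13:95923589-95923617: gagacagggctGTAAACAatgagatctcc
FOXA match 2, chr13:95924616-95924644: gtggtaaaatgTGTTTACaacattctcta
Among all 210061 bins that anchor a loop, 53.2% held a FOXA match. Of the 23 bins that ABCC4 contacted, 13 held one, a share near that of all bins. The promoter bin itself held none. A missing match says only that these letters are not in the bin.

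The summed contact frequency of the canonical promoter was higher after DHT than at 0 m in both marks. With loops of every annotated ABCC4 start, many of them inside the gene, the H3K27ac direction turned after 30 m, to a log2 change of -0.43 (-0.62 to -0.24), and after 72 h, to -0.23 (-0.44 to -0.03). In H3K27ac HiChIP it was 47.0 at 0 m (160 read pairs), 59.4 after 30 m (330), 60.5 after 4 h (283), 76.2 after 16 h (359) and 58.7 after 72 h (223). In H3K4me3 HiChIP it was 48.5 at 0 m (172 read pairs), 53.3 after 30 m (156), 87.5 after 4 h (1104), 80.8 after 16 h (418) and 59.6 after 72 h (217). The marks were scaled apart, so their levels are not compared. The H3K27ac value was highest after 16 h, while the H3K4me3 values after 4 h (interval 82.4 to 92.8) and 16 h (73.2 to 88.9) overlapped within counting error. With loops of 20 kb or more the H3K4me3 order of these time points turned, to 46.0 after 4 h and 48.3 after 16 h, and scaled to equal totals the changes were 0.63 and 0.60. Over all loops of the tables the mean contact itself moved from 0 m, in log2 units. In H3K4me3 it moved by 0.02 after 30 m, 0.22 after 4 h, 0.14 after 16 h and -0.13 after 72 h. In H3K27ac it moved by 0.09 after 30 m, 0.07 after 4 h, 0.25 after 16 h and 0.17 after 72 h. In log2 units the H3K27ac change of the promoter's sum from 0 m was 0.34 after 30 m (95% interval 0.06 to 0.62), 0.36 after 4 h (0.08 to 0.65), 0.70 after 16 h (0.42 to 0.97) and 0.32 after 72 h (0.02 to 0.62). The H3K4me3 change was 0.14 after 30 m (-0.19 to 0.46), 0.85 after 4 h (0.62 to 1.09), 0.74 after 16 h (0.48 to 1.0) and 0.30 after 72 h (0.003 to 0.60). After 30 m the H3K4me3 interval included 0, and with read pairs scaled to equal totals so did those of H3K27ac after 30 m (0.24, -0.03 to 0.53) and 72 h (0.15, -0.15 to 0.45). In H3K27ac the 20 loops of 20 kb or more gave -0.0030 after 30 m (-0.36 to 0.36), 0.16 after 4 h (-0.20 to 0.52), 0.38 after 16 h (0.04 to 0.74) and -0.11 after 72 h (-0.50 to 0.29), so that without the 3 shorter loops only the 16 h interval stayed above 0. Without the 5 kb loop alone, the intervals above 0 were those of H3K27ac after 16 h, 0.47 (0.16 to 0.79), and of H3K4me3 after 4 h, 0.76 (0.49 to 1.04), and 16 h, 0.70 (0.40 to 1.0).

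**Figure D1:**
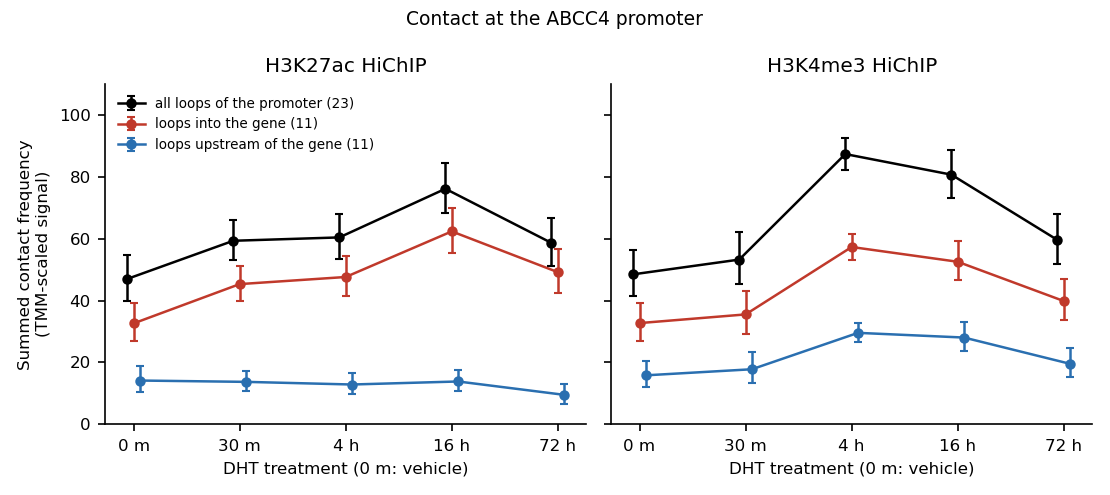
Summed contact frequency (TMM-scaled signal, y axis) of the ABCC4 promoter at 0 m (vehicle) and after DHT (x axis), for all 23 loops (black), the 11 loops into the gene (red) and the 11 upstream loops (blue), with exact 95% counting intervals. The H3K27ac total reached 76.2 after 16 h, while its upstream loops were at 14.1 at 0 m, 13.8 after 16 h and 9.47 after 72 h. In H3K4me3 both groups were higher after 4 h and 16 h than at 0 m.

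Among promoters of the whole genome, fewer changed at least as much as ABCC4 in H3K4me3 than in H3K27ac at each time point. Among promoters on chromosome 13 alone this order turned after 30 m, to 51.3% in H3K4me3 against 21.3% in H3K27ac, and after 4 h, to 21.8% against 4.41%. Summed contact was 1.5-fold or more above 0 m after 16 h for ABCC4 in both marks, against 18.4% of 9269 promoters in H3K27ac and 1.99% of 10840 promoters in H3K4me3 (those with at least 50 read pairs at 0 m). In H3K27ac ABCC4 fell below this limit with read pairs scaled to equal totals (log2 change 0.45), with loops of 20 kb or more (0.38), without the 5 kb loop (0.47) or the 30 kb loop (0.56) and with every annotated start (0.28). In H3K27ac a change at least as large as that of ABCC4 was seen at 44.6% of promoters after 30 m, 6.88% after 4 h, 11.9% after 16 h and 37.4% after 72 h. In H3K4me3 the shares were 31.5% after 30 m, 3.44% after 4 h, 0.452% after 16 h and 3.87% after 72 h. The median promoter changed by 0.18 in H3K27ac and 0.11 in H3K4me3 after 16 h, in log2 units. The quartiles were -0.15 and 0.48 in H3K27ac and -0.03 and 0.25 in H3K4me3. Promoters thus spread less in H3K4me3, while ABCC4 itself changed by a like amount, 0.70 in H3K27ac and 0.74 in H3K4me3. The level itself was above the median promoter in all 10 tables, with 13.9% to 21.4% of the 16259 promoters with loops at least as high in H3K27ac and 28.5% to 42.2% in H3K4me3. The number of loops, 23, was close to the median of 20.

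**Figure D2:**
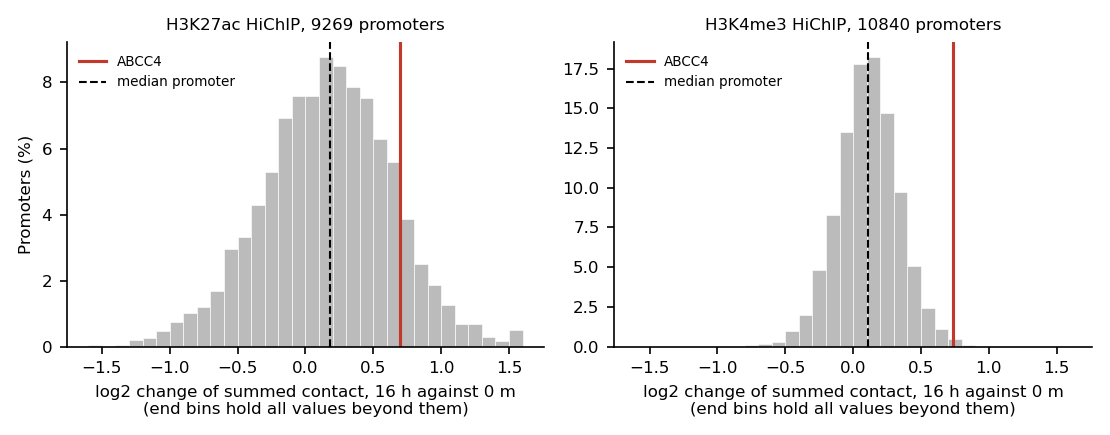
Share of promoters (%, y axis) by log2 change of summed contact after 16 h against 0 m (x axis), with ABCC4 as a red line and the median promoter as a dashed line. ABCC4 lay at 0.70 in H3K27ac, where 11.9% of promoters changed at least as much, and at 0.74 in H3K4me3, where 0.452% did.

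The strongest contact of the promoter was the 5 kb loop into intron 1 in every table. The authors had called this loop in H3K27ac alone, not in H3K4me3. In H3K27ac HiChIP its contact frequency was 8.52 at 0 m, 16.2 after 30 m, 16.7 after 4 h, 22.9 after 16 h and 18.7 after 72 h. In H3K4me3 it was 10.7, 11.3, 23.5, 19.5 and 14.0 at the same time points. It held 18.1% of the promoter's H3K27ac read pairs at 0 m (12.5% to 25%, exact binomial interval) and 27.3% to 31.8% after DHT, and 21.2% to 26.8% of the H3K4me3 read pairs. Its log2 change in H3K27ac was 0.93 after 30 m (0.31 to 1.58), 0.97 after 4 h (0.34 to 1.64), 1.43 after 16 h (0.83 to 2.07) and 1.13 after 72 h (0.49 to 1.81), and exceeded that of the sum of the other 22 loops at all 4 time points, by 0.96 after 16 h (0.27 to 1.68). In H3K4me3 no such excess was seen beyond counting error. This loop joins neighbouring bins, and loops of that length moved in the same direction in H3K27ac: the mean of all 8561 promoter loops of 5 kb was 10.1 at 0 m, 14.2 after 30 m, 11.8 after 4 h, 16.7 after 16 h and 15.1 after 72 h. The contact of the ABCC4 loop was 0.84 to 1.41 times that mean in H3K27ac and 0.58 to 1.01 times in H3K4me3.

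The loop to the bin of the intron 1 guides, 30 kb into intron 1, was the second strongest in the H3K27ac tables, level with the 85 kb loop at 0 m. It stood farther above loops of its own length than the 5 kb loop did. Its H3K27ac contact frequency was 5.00 at 0 m (17 read pairs), 8.10 after 30 m (45), 10.0 after 4 h (47), 14.2 after 16 h (67) and 10.0 after 72 h (38). The log2 change was 0.70 after 30 m (-0.14 to 1.6), 1.01 after 4 h (0.18 to 1.90), 1.51 after 16 h (0.73 to 2.37) and 1.0 after 72 h (0.14 to 1.92), and the 72 h interval also included 0 once read pairs were scaled to equal totals (0.83, -0.03 to 1.75). Every value after DHT was above that at 0 m, with the interval after 30 m including no change. The change exceeded that of the other 22 loops by 0.95 after 16 h (0.10 to 1.86), while the excess of 0.41 after 30 m (-0.48 to 1.36), 0.74 after 4 h (-0.15 to 1.69) and 0.79 after 72 h (-0.14 to 1.77) was within counting error. Against the mean of the 4431 promoter loops of 30 kb in the same table it was 2.33 times as high at 0 m, 3.03 times after 30 m, 4.64 times after 4 h, 5.83 times after 16 h and 4.10 times after 72 h. Of those 4431 loops, 8.24% were at least as strong at 0 m and 1.35% after 16 h.

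In H3K4me3 the same 30 kb loop was weaker relative to its length class. Its contact frequency was 3.1 at 0 m (11 read pairs), 6.49 after 30 m (19), 7.84 after 4 h (99), 5.80 after 16 h (30) and 4.95 after 72 h (18). Only the change after 4 h, 1.34 (0.44 to 2.39), had an interval above 0. It was 0.80 times the mean of 30 kb promoter loops at 0 m and 1.42 to 1.80 times after DHT.

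The loop to the bin of the intron 3 guides, 55 kb into the gene, rested on few read pairs. In H3K27ac it had a contact frequency of 1.76 at 0 m (6 read pairs), 4.14 after 30 m (23), 3.20 after 4 h (15), 4.03 after 16 h (19) and 3.42 after 72 h (13). All 4 values after DHT were higher than at 0 m, but each interval of the change included 0, as for 1.23 after 30 m (-0.11 to 2.82) and 1.19 after 16 h (-0.19 to 2.81). In H3K4me3 it had 6, 6, 40, 11 and 4 read pairs, and no change was detectable at this depth. The 30 kb loop was above the 55 kb loop in all 10 tables, with 14.2 against 4.03 in H3K27ac after 16 h, but shorter loops have more contact in general. Relative to promoter loops of 55 kb, the 55 kb loop was 1.22 times as high at 0 m in H3K27ac, 2.51 times after 30 m and 2.67 times after 16 h, where the 30 kb loop stood at 2.33, 3.03 and 5.83 times its own length class.

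**Figure D3:**
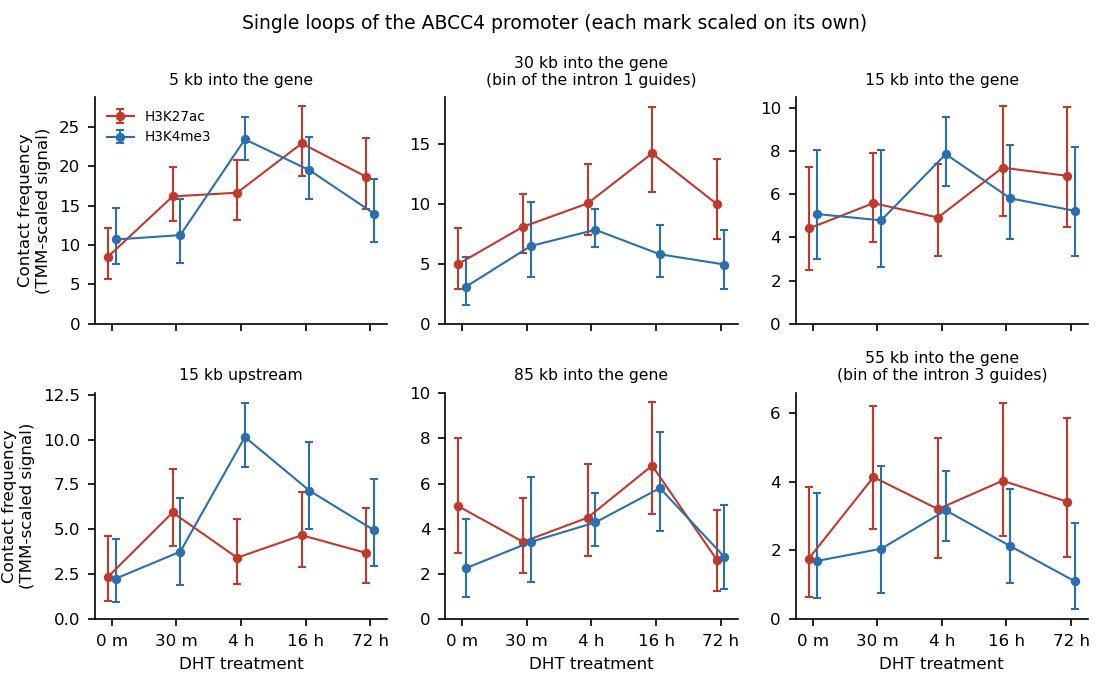
Contact frequency (TMM-scaled signal, y axis, a separate scale in each panel) of 6 loops of the ABCC4 promoter at 0 m and after DHT (x axis) in H3K27ac (red) and H3K4me3 (blue) HiChIP, with exact 95% counting intervals; the marks were scaled apart. The loop to the bin of the intron 1 guides went from 5.00 to 14.2 in H3K27ac after 16 h, and the upstream loop of 15 kb from 2.26 to 10.1 in H3K4me3 after 4 h.

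Among the other strong loops the time course differed from loop to loop. The upstream loop of 15 kb, to a bin with no annotated gene, had the largest H3K4me3 change of the 10 strongest loops: its contact frequency was 2.26 at 0 m (8 read pairs), 3.76 after 30 m (11), 10.1 after 4 h (128), 7.15 after 16 h (37) and 4.95 after 72 h (18). The change was 2.17 after 4 h (1.15 to 3.41) and 1.66 after 16 h (0.54 to 2.98), and after 4 h it exceeded that of the other 22 loops by 1.43 (0.37 to 2.70). The excess of 0.99 after 16 h (-0.17 to 2.34) and 0.89 after 72 h (-0.43 to 2.34) was within counting error. In H3K27ac the same loop was highest after 30 m, at 5.94 (33 read pairs) against 2.35 at 0 m (8), a change of 1.34 (0.19 to 2.66). The loop of 15 kb into the gene had 4.41 at 0 m and 4.91 to 7.22 after DHT in H3K27ac, and 5.08 at 0 m and 4.78 to 7.84 after DHT in H3K4me3, with every interval including no change. The upstream loop of 80 kb fell in H3K27ac from 2.35 at 0 m (8 read pairs) to 0.54 after 30 m (3) and 0.21 after 16 h (1). These changes were -2.12 (-4.67 to -0.06) and -3.47 (-8.94 to -0.57), and its other intervals in both marks included 0. The loops of 70 kb, into the gene and upstream, had no change beyond counting error in either mark.

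The 85 kb loop into intron 4 was strong for its length before DHT was given. In H3K27ac it had a contact frequency of 5.00 at 0 m (17 read pairs), 3.42 after 30 m (19), 4.49 after 4 h (21), 6.79 after 16 h (32) and 2.63 after 72 h (10). At 0 m it was as high as the 30 kb loop and 4.53 times the mean of the 3536 promoter loops of 85 kb, of which 1.75% were at least as strong. It was 2.76 times that mean after 30 m, 4.13 times after 4 h, 5.78 times after 16 h and 2.25 times after 72 h. After 16 h 1.53% of those loops were at least as strong, and the 30 kb loop stood at 5.83 times its own length class. None of the H3K27ac changes of the 85 kb loop exceeded counting error. In H3K4me3 the 85 kb loop went from 2.26 at 0 m (8 read pairs) to 5.80 after 16 h (30), a change of 1.36 (0.20 to 2.70). Farther into the gene, the next loop, to introns 8 and 9, had an H3K4me3 contact frequency of 3.38 at 0 m and 3.42 to 5.22 after DHT, and an H3K27ac contact frequency of 1.62 to 2.56 in all 5 tables. The 13 loops outside the 10 strongest had between 0 and 38 read pairs and a contact frequency of at most 3.29 in any table. The loop to the DNAJC3 promoter had 0 to 2 read pairs in the H3K27ac tables and 11 at most in the H3K4me3 tables, so nothing can be read from it.

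Counts of single loops were read against all promoter loops. With at least 20 read pairs in a pair of tables, the H3K27ac contact was 2-fold or more above 0 m for 2 of 7 ABCC4 loops after 30 m (14.6% of all promoter loops), 1 of 7 after 4 h (5.08%), 3 of 7 after 16 h (18.9%) and 2 of 5 after 72 h (16.5%). In H3K4me3 this held for 1 of 4 after 30 m (3.29%), 5 of 16 after 4 h (15.9%), 3 of 11 after 16 h (5.77%) and 1 of 7 after 72 h (2.28%). After 16 h the 3 loops in H3K27ac were those of 5 kb, 30 kb and 55 kb into the gene, while the 3 in H3K4me3 were the upstream loops of 15 kb and 30 kb and the 85 kb loop into the gene. A 2-fold fall was seen in 1 of these cases, the 135 kb loop into the gene in H3K4me3, from 2.26 (8 read pairs) to 0.95 (12) after 4 h. The members that passed this minimum are the stronger loops, and the numbers are too small to set apart from the background.

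The loops into the gene and the upstream loops differed in H3K27ac. The 11 loops into the gene had a summed H3K27ac contact of 32.6 at 0 m, 45.3 after 30 m, 47.6 after 4 h, 62.4 after 16 h and 49.2 after 72 h, with 111 to 294 read pairs. The 11 upstream loops had 14.1, 13.7, 12.8, 13.8 and 9.47 at the same time points, with 36 to 76 read pairs. After 16 h the change was 0.94 (0.62 to 1.26) into the gene and -0.03 (-0.59 to 0.54) upstream. After 72 h it was 0.59 (0.25 to 0.95) into the gene and -0.57 (-1.24 to 0.08) upstream. The difference between these changes does not depend on the scaling and was 0.52 after 30 m (-0.13 to 1.16), 0.68 after 4 h (0.01 to 1.36), 0.97 after 16 h (0.31 to 1.62) and 1.16 after 72 h (0.42 to 1.92). With loops of 20 kb or more alone it was 0.72 after 4 h (-0.08 to 1.53) and 1.07 after 16 h (0.28 to 1.87), and without the 5 kb loop 0.50 after 4 h (-0.21 to 1.21) and 0.74 after 16 h (0.05 to 1.43), so that the 4 h interval then included 0. Without the 5 kb and 30 kb loops it was 0.43 after 16 h (-0.30 to 1.17), so that these 2 loops carry much of it. After 72 h the loops of 20 kb or more changed by 0.27 (-0.21 to 0.74) into the gene and by -1.02 (-1.84 to -0.24) upstream. The gap at 72 h thus includes lower upstream contact. The split into loops in the gene and upstream was made after the values had been seen.

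In H3K4me3 no difference between the 2 sets of loops was detectable at this depth. The loops into the gene had a summed contact of 32.7 at 0 m, 57.4 after 4 h and 52.6 after 16 h, and the upstream loops of 15.8, 29.6 and 28.0. After 16 h the change was 0.68 (0.37 to 1.01) into the gene and 0.83 (0.37 to 1.30) upstream, a difference of -0.14 (-0.72 to 0.42).

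**Figure D4:**
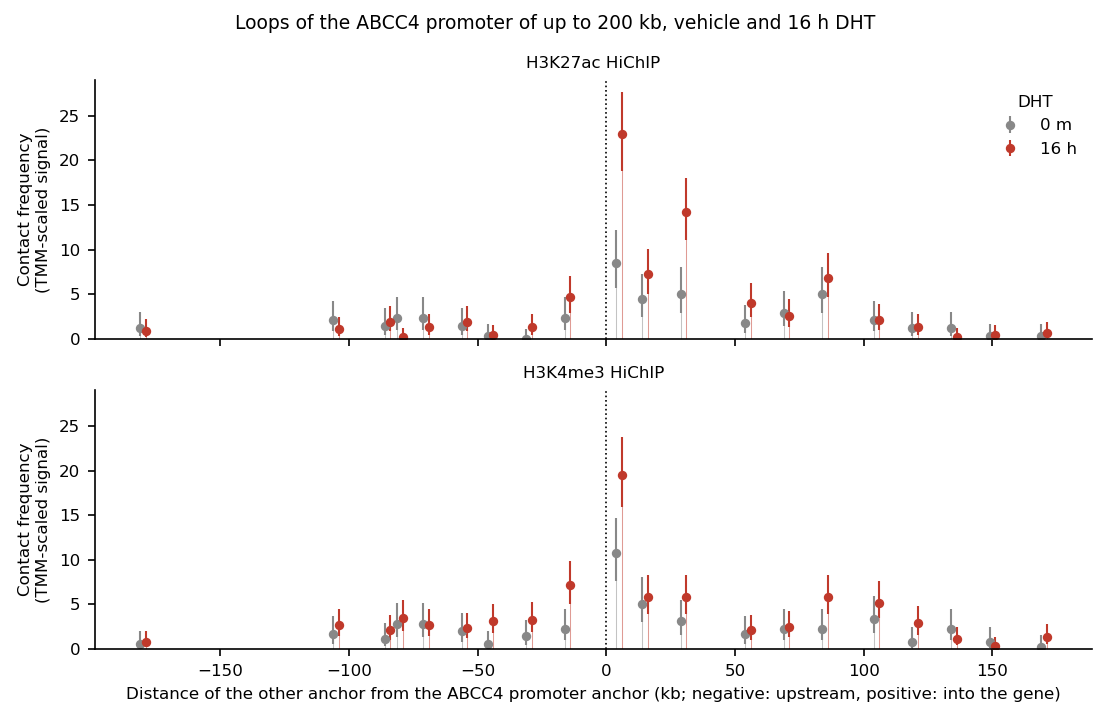
Contact frequency (TMM-scaled signal, y axis) of the 20 loops of up to 200 kb by distance of the other anchor from the promoter anchor (kb, x axis; negative values are upstream and positive values in the gene), at 0 m (grey) and after 16 h of DHT (red), with exact 95% counting intervals. The tallest points are the 5 kb and 30 kb loops into the gene in H3K27ac, at 22.9 and 14.2 after 16 h.

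Within the gene, 47 further loops joined bins of ABCC4 to each other without touching the promoter. Their summed H3K27ac contact was 300.3 at 0 m (1022 read pairs), 257 after 30 m (1430), 379 after 4 h (1773), 532 after 16 h (2507) and 347 after 72 h (1320). The H3K27ac change was -0.22 after 30 m (-0.34 to -0.11), 0.34 after 4 h (0.22 to 0.45), 0.83 after 16 h (0.72 to 0.93) and 0.21 after 72 h (0.09 to 0.33). For the 35 of these loops that span 20 kb or more it was -0.45 after 30 m (-0.63 to -0.26), 0.07 after 4 h (-0.11 to 0.25), 0.30 after 16 h (0.13 to 0.48) and -0.32 after 72 h (-0.52 to -0.12), so that the 4 h interval included 0 and the 72 h direction turned. After 30 m the 47 loops were below vehicle while the promoter's own loops were above it, with a difference between the changes of 0.56 (0.26 to 0.87). The fall was uneven within the gene: the 8 loops at the anchor starting at 95802001 changed by -1.45 (-1.81 to -1.09) and the 9 at 95782001 by -0.82 (-1.1 to -0.54), while the 9 at the bin of the intron 1 guides were at 0.21 (-0.005 to 0.42) and the 5 at 95937001 at 0.49 (0.02 to 0.96). In H3K4me3 the 47 loops were at 0.28 after 30 m (-0.30 to 0.85). After 16 h the H3K27ac difference was within counting error (-0.13, -0.42 to 0.17). The strongest of them joined the bin of the intron 1 guides to the next bin toward the promoter, 5 kb away, and had a contact frequency of 32.3 at 0 m (110 read pairs), 45.2 after 30 m (251), 58.8 after 4 h (275), 113.8 after 16 h (536) and 72.4 after 72 h (275), a change of 1.82 after 16 h (1.52 to 2.13). The 9 such loops that touch the bin of the intron 1 guides changed as a sum by 1.30 after 16 h (1.11 to 1.49), with 536 of their 963 read pairs in that 1 loop. Loops at 2 bins without guides changed by a like amount: the 5 loops at the bin that ends the 85 kb promoter loop changed by 1.32 (1.05 to 1.59), and the 2 at the next bin toward the promoter by 1.49 (1.19 to 1.81). These sets share the 5 kb loop between the 2 bins, and each holds 1 loop to the bin of the intron 1 guides. They are described after their values had been seen.

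Contact at neighbouring promoters was examined in the same way. Of 9 protein-coding promoters with loops within 1 Mb, those with at least 50 read pairs at 0 m were DNAJC3 and GPR180 in H3K27ac and DNAJC3, GPR180 and TGDS in H3K4me3. None was 1.5-fold or more above 0 m after 16 h, beside 18.4% of all promoters in H3K27ac and 1.99% in H3K4me3, and the numbers are too small to read against these shares. In H3K27ac DNAJC3 changed by 0.09 (-0.21 to 0.39) and GPR180, an orphan receptor-like protein, by 0.49 (0.04 to 0.94). In H3K4me3 DNAJC3 changed by 0.36 (0.10 to 0.63), TGDS by 0.31 (-0.03 to 0.66) and GPR180 by 0.09 (-0.20 to 0.38).

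Among related transporters and genes that make or sense ABCC4 substrates, most members had under 50 read pairs at 0 m. Of 11 other C family genes 3 had enough, and 1 of them, ABCC1, an exporter of glutathione conjugates, was 1.5-fold or more above 0 m after 16 h in H3K27ac, at 1.26 (0.92 to 1.6), but not in H3K4me3, at 0.02 (-0.27 to 0.31). ABCC5 and ABCC10 changed by 0.29 (-0.02 to 0.61) and 0.05 (-0.29 to 0.38) in H3K27ac. Of 12 genes of prostaglandin and cyclic nucleotide handling 4 had enough, and 2 were 1.5-fold or more above 0 m in H3K27ac: PTGES3, a prostaglandin E synthase and chaperone partner, at 0.73 (0.57 to 0.89), and ADCY6, an adenylate cyclase that makes cyclic AMP, at 0.70 (0.46 to 0.95). The other 2 prostaglandin E synthases changed by 0.44 (-0.03 to 0.92, PTGES) and by -0.26 (-0.49 to -0.04, PTGES2), so that 1 of the 4 lay below 0 m beyond counting error. In H3K4me3 none of the 3 and none of the 4 was 1.5-fold or more above 0 m, beside 1.99% of all promoters. The counts, 1 of 3 and 2 of 4, stand beside 18.4% of all promoters in H3K27ac.

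Over the 10 tables, the promoters whose contact moved most like that of ABCC4 were those of UCHL5 and RO60 (r = 0.88), which share their 79 loops, of HMGXB3 and TIGD6 (r = 0.87), which share 119 loops, and of ANAPC16 (r = 0.86). Pearson's r was taken on log2 contact after subtracting the mean of each mark, among 2079 promoters with at least 200 read pairs in every table. The median r of all these promoters was 0.47. The points share tables, depth and scaling, and r is given as a description only. UCHL5 encodes a deubiquitinase of the proteasome and ANAPC16 a subunit of the anaphase-promoting complex, and they changed by 0.25 and 0.32 in H3K27ac after 16 h. HMGXB3 and TIGD6 changed by 0.63, beside 0.70 for ABCC4. In H3K4me3 after 16 h UCHL5 changed by 0.41, ANAPC16 by 0.49, and HMGXB3 and TIGD6 by 0.30, beside 0.74 for ABCC4.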

How the data were processed

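The authors carried out H3K27ac and H3K4me3 HiChIP on LNCaP cells, digesting chromatin with MboI. Per the methods, Trim Galore 0.5.0 removed adapters, HiC-Pro 3.1.0 mapped reads on hg19, and loops were called by FitHiChIP in 5 kb bins on the merged time points of a mark. The deposited values are a contact signal, TMM-scaled by the authors for each mark, in 10 tables of the same 574817 loops (296326 from H3K27ac followed by 278491 from H3K4me3).

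Read pairs were recovered by dividing by the value of 1 read pair (tolerance 0.01, 100% of values whole). All coordinates are hg19, and no loop ran past a chromosome end on GRCh37. Promoters came from Gencode 44 lifted to GRCh37. Changes are log2 ratios of summed contact to 0 m with exact conditional binomial 95% intervals, and differences between sets have exact intervals of an odds ratio. Recovery and intervals were tested on simulated data. Guides came from the supplementary data and were matched by their last 19 bases, on both strands. A promoter needed 50 read pairs at 0 m and a loop 20 in the 2 tables compared. Folds of 1.5 for promoters and 2 for loops served as limits. Named were ABCC4, its neighbours within 1 Mb, 2 gene lists, the 5 promoters most alike, the 10 strongest loops and those to guide bins. The members and lists were chosen with earlier results of these data known. Alternatives varied scaling, loop length, window, bins, start sites, loop set, contact and the comparison promoters. Software was scipy 1.17.1, pandas 2.3.3 and numpy 2.4.6 under Python 3.11.15. Sequencing reads, ChIP-seq and RNA-seq were not analysed here, and 1 marker gene, 1 gene list and 1 sequence pattern are not reported here.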

Additional observations from a re-analysis of the deposited data

Results flagged for a closer look

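The H3K27ac and H3K4me3 tables differed in which ABCC4 loops were higher after DHT. The change of the loops into the gene minus that of the upstream loops was larger in H3K27ac than in H3K4me3 by 1.11 in log2 units after 16 h (95% interval 0.28 to 1.94) and by 1.19 after 72 h (0.25 to 2.13). At 30 m and 4 h the difference was 0.57 (-0.33 to 1.47) and 0.78 (-0.03 to 1.6). These intervals are normal approximations from the recovered read pairs, cover counting error only and rest on 1 deposited table per mark and time point, and the split was chosen after the values had been seen. The 36 to 76 H3K27ac read pairs in the upstream loops limit the comparison, and the part that depth or the level of either mark at the anchors plays was not tested.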

How the results depend on the processing

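No replicate could be left out, and no paired analysis was possible because each mark and time point has a single deposited value for a loop. Of 231 recomputed values, 196 stayed within the counting interval (for counts and shares of promoters, within 1.5 times) of the reported one, 31 did not and 4 changed sign. Scaling read pairs to the same total kept all 104 values within their intervals, and 5 kb bins and a mean contact of 1 or more moved none. The 9 values with a 1 kb window and the 16 with every anchor within 10 kb of the start used the same loops as reported. They could not move and say nothing about robustness, though they count among the 196. Scaled so, the H3K27ac change was 0.24 after 30 m (-0.03 to 0.53), 0.29 after 4 h (0.01 to 0.58), 0.45 after 16 h (0.18 to 0.73) and 0.15 after 72 h (-0.15 to 0.45), so that the first and last intervals then included 0. Without the 5 kb loop, or the 30 kb loop (added after seeing the data), the summed change also stayed within its interval, but of the 8 changes only those after 16 h in H3K27ac (0.47 and 0.56) and after 4 h (0.76 and 0.81) and 16 h (0.70 and 0.72) in H3K4me3 kept an interval above 0.

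With loops of 20 kb or more the summed H3K27ac change was -0.0030 after 30 m, 0.38 after 16 h and -0.11 after 72 h, and that of H3K4me3 0.60 after 4 h. With all 14 annotated starts, many of them inside the gene, the number of loops was 47 and the H3K27ac change was -0.43 after 30 m (-0.62 to -0.24), 0.28 after 16 h (0.10 to 0.46) and -0.23 after 72 h (-0.44 to -0.03). The share of the strongest loop of 20 kb or more, another loop by construction, in H3K4me3 was 11.1% in vehicle, 17% after 4 h, 12% after 16 h and 14.7% after 72 h. With loops called in the mark measured alone, the share was 33.8% after 4 h and 39.0% after 72 h in H3K27ac, and 15% at 0 m, 17.4% after 4 h, 12.7% after 16 h and 12.7% after 72 h in H3K4me3, which left out the 5 kb loop. The share of promoters that changed at least as much as ABCC4, with loops of 20 kb or more, was 70.5%, 14.9%, 21.3% and 69.2% after 30 m, 4 h, 16 h and 72 h in H3K27ac, and 9.45%, 0.86% and 10.2% after 4 h, 16 h and 72 h in H3K4me3. Among promoters with at least 200 read pairs at 0 m it was 1.89% after 4 h in H3K27ac, and 1.48%, 0.147% and 1.01% after 4 h, 16 h and 72 h in H3K4me3. On the same chromosome it was 21.3% after 30 m and 4.41% after 4 h in H3K27ac, and 51.3%, 21.8%, 1.92% and 13.5% after 30 m, 4 h, 16 h and 72 h in H3K4me3. The causes were not tested. Depth limited single loops most, with a median of 4 to 7 read pairs per loop in H3K27ac.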
